A study of Homo sapiens with 6 samples.

Results

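Lysosomal hydrolases and their cofactors were examined in large physaliferous and small non-vacuolated cells of MUG-Chor1, a cell line that was grown out of a single chordoma of the sacrum. The list holds 37 genes, and a gene was taken as measured when a probe set of the array carried exactly its symbol and no other. This found 36 of 37 genes among the 18404 genes of the array with a symbol of their own, while *AGA*, the glycosylasparaginase gene, was not analysed here. *IDS* had 2 probe sets, of which the brighter was kept, and the other 35 genes had 1 each. Each array held amplified cDNA of a pool of 20 cells that had been picked by shape with a micromanipulator after trypsinization. There were 3 pools of large cells (pools 2, 3 and 4) and 3 pools of small cells (pools 5, 6 and 7). No treatment is named for either group, and the groups are defined by the picked phenotype, that is, by large vacuoles that are present or absent. The sources do not say that the pools came from separate cultures, so every p-value refers to the spread among these 6 pools, which may be technical. Both groups are of 1 cell line and stand for no other tumor. The same mass of cDNA was hybridized for every pool, so a level is a share of the amplified cDNA, and less RNA per cell cannot be told apart from fewer expressing cells.

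The lysosome is the acidic compartment in which proteins, glycans, lipids and sulfated chains are broken down. Most of its soluble enzymes are made in the endoplasmic reticulum, receive a mannose 6-phosphate tag in the Golgi apparatus and are carried to endosomes by receptors for this tag. Loss of a single enzyme or cofactor can cause a storage disease with swollen, vacuole-like lysosomes. In zebrafish, the vacuoles of notochord cells are regarded as organelles related to lysosomes, and chordoma is held to arise from remnants of the notochord.

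No lysosomal hydrolase passed the test between large and small cells, and most of the differences were small. Large minus small was tested with limma on the deposited log2 values over all 18404 genes, and p-values were adjusted after Benjamini and Hochberg. With a limit of 0.05 on the adjusted p, limma called 0 of 36 members and 0 of 18404 genes (0%), and the smallest adjusted p of a member was 0.32. The paper, which first removed genes without expression or change, reported *ALG11*, *UCHL3*, *TMEM144* and *PPP2CB* as significantly different, none of them a member. Its RT-qPCR gave the direction of its arrays for all of these but *TMEM144*. At an unadjusted p under 0.05, 1 member was higher in large cells (*PPT1*) and 2 were lower (*NAGLU* and *GAA*), where 4.33% of all genes were higher and 10.5% were lower. In 32 of 36 members the log2 fold change lay within 0.3 of no difference, and the 95% confidence interval of 31 members excluded a log2 fold change of 1 in either direction. Intervals that reached 1 or -1 were those of *HEXA*, *MANBA*, *LIPA*, *PPT1* and *NPC2*.

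The members as a whole were placed like the other genes on these arrays. Of 36 members, 12 had a higher mean in large cells and 24 a lower one, that is 33.3% and 66.7%, against 33.6% and 66.4% of all genes. The median log2 fold change was -0.08 for the members and -0.11 for all genes. The arrays of large cells had lower medians over all probe sets (6.64 to 6.68) than those of small cells (6.73 to 6.76), and this balance moved with the scaling of the arrays. With quantile normalization 13 members were higher and 23 lower, against 37.7% and 62.3% of all genes. After centring each array on its median 18 members were higher and 18 lower, against 45.6% and 54.4% of all genes. After cyclic loess normalization 20 members were higher and 16 lower, against 49% and 51% of all genes. Over all 4 scalings 11 members kept a positive and 15 a negative log2 fold change, and 10 changed sign.

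**Figure D1:**
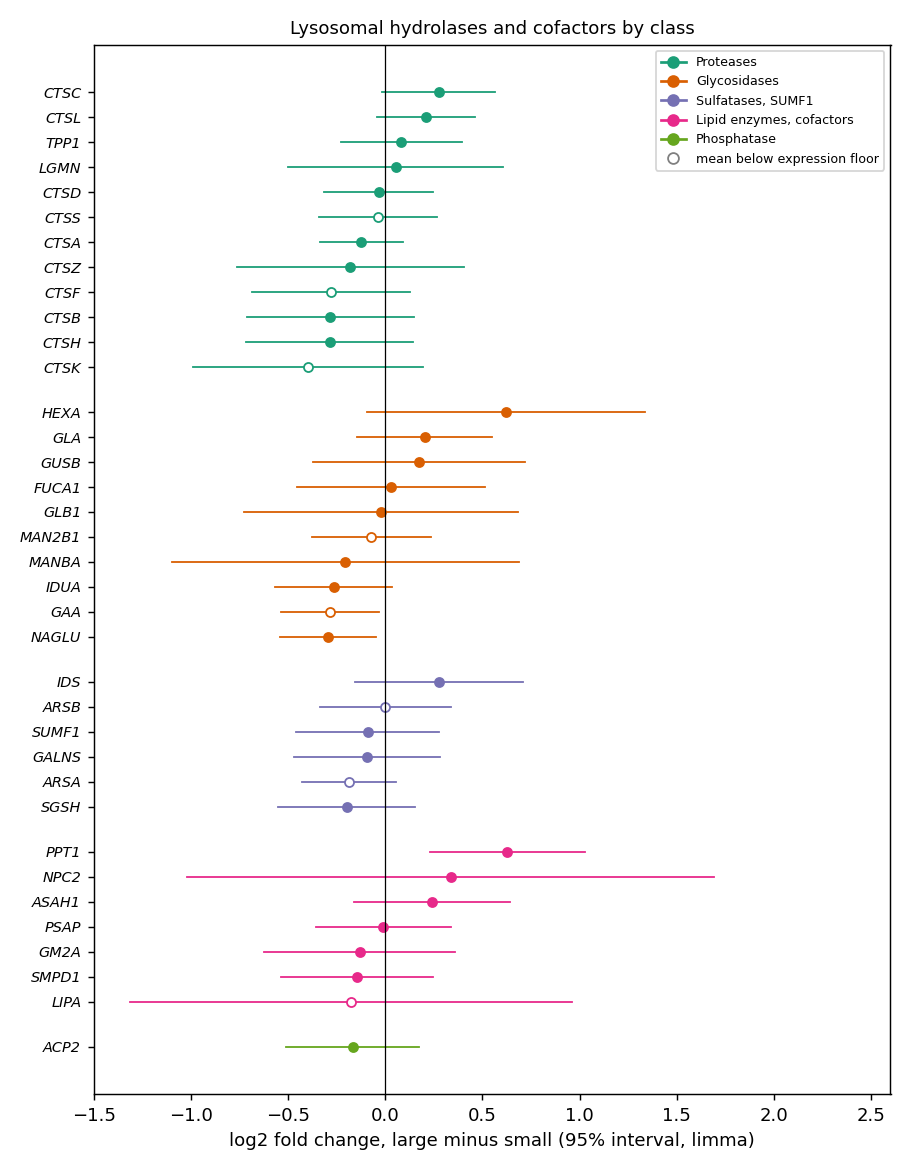
Log2 fold change of large minus small MUG-Chor1 cells (horizontal axis) for the 36 measured members, by class, with 95% confidence intervals from limma (3 pools against 3). Open circles have a mean below the expression floor; the interval lies wholly on 1 side of 0 for *PPT1*, *NAGLU* and *GAA*.

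In 9 members the pools of large and small cells did not overlap. Large pools were above all small pools for *PPT1*, *HEXA*, *CTSC* and *CTSL*, which is 11.1% of the members, against 5.48% of all genes. Large pools were below all small pools for *NAGLU*, *GAA*, *IDUA*, *ARSA* and *CTSA*, which is 13.9% of the members, against 21.6% of all genes. An exact permutation test of 3 pools against 3 reaches no two-sided p under 0.1, so a separation of this kind is the most such a test can show. The number of separate members depended on the scaling too. With quantile normalization 3 members were separated upward and 4 downward, against 6.03% and 14.7% of all genes. After centring there were 4 and 3, against 8.65% and 10.7%, and after cyclic loess normalization 3 and 3, against 8.52% and 7.73%. An unadjusted p under 0.05 was reached by 1 higher and 1 lower member with quantile normalization (4.53% and 5.9% of all genes), by 3 higher and 0 lower after centring (6.56% and 3.9%) and by 1 higher and 0 lower after cyclic loess normalization (6.11% and 2.53%), and limma called 0 members under each. Under all 4 scalings *CTSC* and *PPT1* remained separated upward and *GAA* and *NAGLU* downward, while 4.63% and 6.63% of all genes did so in these directions.

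A linear signal of 100, which is 6.64 on the log2 scale, was taken as the expression floor. Of the 36 members 23 were above it in every pool, 7 in some pools and 6 in none, the last being *CTSF*, *CTSS*, *GAA*, *MAN2B1*, *ARSA* and *ARSB*. Members with a mean above the floor (28) had a median log2 fold change of -0.03, and the 8 with a mean below it had -0.18. For all genes these medians were -0.09 and -0.12. Among members above the floor 4 were separated upward and 3 downward, against 7.42% and 20.6% of all genes above the floor. All 8 members below the floor had a lower mean in large cells on the deposited scale, as had 73.8% of all genes below the floor. After cyclic loess normalization the medians of the members were 0.04 above and -0.04 below the floor. A difference of a gene below the floor gives no size of change.

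**Figure D2:**
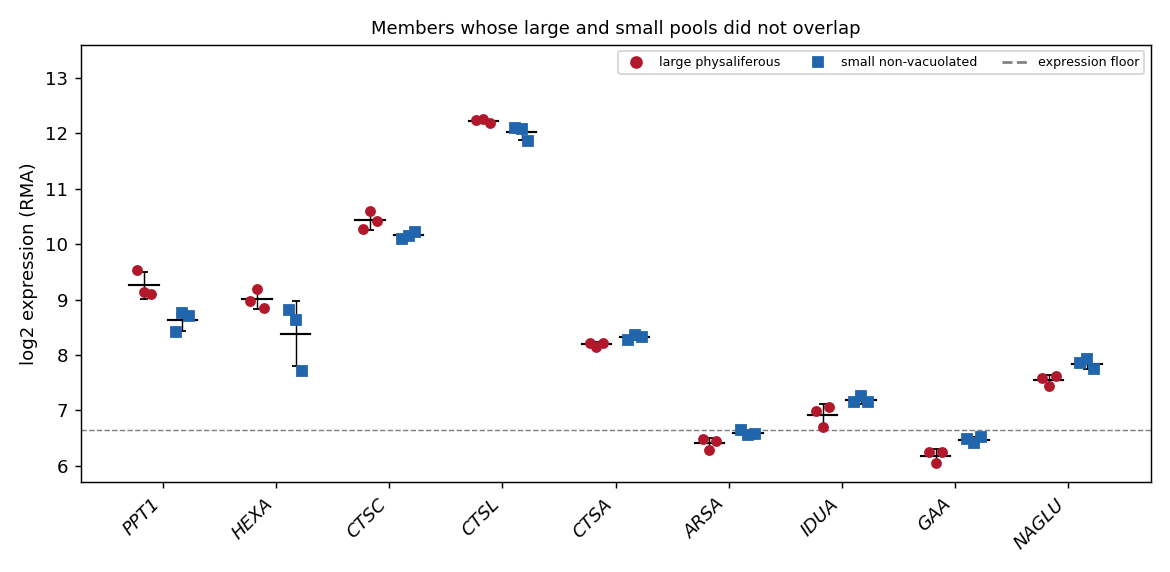
Log2 signal (vertical axis) of each pool of 20 cells for the 9 members whose pools did not overlap. Points are pools, horizontal lines are means, bars give the SD over 3 pools and a dashed line marks the floor; the 4 genes on the left have all large pools above all small pools, and *ARSA* and *GAA* lie below the floor.

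Lysosomal proteases were represented by 12 genes, of which 4 had a higher and 8 a lower mean in large cells (median log2 fold change -0.08, range -0.40 to 0.27). Cathepsin C, encoded by *CTSC*, trims dipeptides from the ends of proteins and activates serine proteases of immune cells. Its log2 expression values were 10.26, 10.61 and 10.42 in large pools and 10.09, 10.15 and 10.22 in small pools. The lowest large pool was thus only slightly above the highest small pool. The log2 fold change was 0.27 (standard error 0.12, 95% confidence interval -0.01 to 0.56, adjusted p = 0.34 from limma).
Cathepsin L (*CTSL*), an endopeptidase, had 12.23, 12.25 and 12.19 in large pools and 12.10, 12.08 and 11.87 in small pools. Its log2 fold change was 0.21 (standard error 0.10, interval -0.04 to 0.46, adjusted p = 0.36 from limma), it was 0.13 without small pool 7, and the pools overlapped after cyclic loess normalization. RefSeq lists pseudogenes of *CTSL*, *GUSB* and *IDS*, and whether the probes tell them apart was not tested. Cathepsin A (*CTSA*) is a carboxypeptidase that also holds beta-galactosidase and neuraminidase in a protective complex. Its values were 8.21, 8.14 and 8.22 in large pools and 8.27, 8.36 and 8.32 in small pools. These groups were separate but close (log2 fold change -0.12, standard error 0.09, adjusted p = 0.47 from limma), and they overlapped after each array was centred.

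The remaining cathepsins were flat or lay below their levels in small cells without a separation of the pools. *CTSB*, *CTSH* and *CTSK* had log2 fold changes of -0.28, -0.29 and -0.40, and *CTSF* had -0.28. Of these, *CTSK*, the collagen-degrading cathepsin of osteoclasts, was above the floor in 1 of 6 pools only, and *CTSF* in none. The aspartic protease *CTSD* had 7.90, 7.68 and 7.57 in large pools and 7.74, 7.75 and 7.77 in small pools, so that the large pools lay on both sides of the small ones. *CTSZ*, a carboxypeptidase, had -0.18 and *CTSS*, the cathepsin of antigen-presenting cells, had -0.04 with no pool above the floor. *TPP1*, which removes tripeptides, and *LGMN*, which cuts after asparagine and processes other cathepsins, had log2 fold changes of 0.08 and 0.05.

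Among the 10 measured glycosidases, 4 had a higher and 6 a lower mean in large cells (median log2 fold change -0.05, range -0.30 to 0.62). *HEXA*, the alpha subunit of the beta-hexosaminidase that degrades ganglioside GM2, had the widest difference. Its values were 8.97, 9.19 and 8.85 in large pools and 8.80, 8.63 and 7.72 in small pools. The log2 fold change was 0.62, or 1.54-fold (standard error 0.30, interval -0.10 to 1.34, adjusted p = 0.35 from limma). Small pool 7 stood lowest, and without it the log2 fold change was 0.29. The pools of *HEXA* overlapped after quantile normalization.

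Both *NAGLU* and *IDUA*, which act on heparan sulfate, had all large pools below all small pools, as had 21.6% of all genes. *NAGLU*, which removes N-acetylglucosamine from this chain, had 7.58, 7.44 and 7.62 in large pools and 7.85, 7.92 and 7.75 in small pools. Every large pool was below every small pool, and the log2 fold change was -0.30 (standard error 0.10, interval -0.54 to -0.05, adjusted p = 0.32 from limma). *IDUA*, the alpha-iduronidase of heparan and dermatan sulfate, had 6.997, 6.704 and 7.055 in large pools and 7.149, 7.259 and 7.147 in small pools. Its log2 fold change was -0.27 (standard error 0.12, interval -0.57 to 0.04, adjusted p = 0.35 from limma), it was -0.16 without large pool 3, and its pools overlapped after cyclic loess normalization. *GUSB*, the beta-glucuronidase of the same pathway, did not share this order. It had 8.48, 8.62 and 8.37 in large pools and 8.60, 7.82 and 8.53 in small pools. Nor did the sulfatases *SGSH*, which also acts on heparan sulfate, and *IDS*, whose pools overlapped (log2 fold changes -0.20 and 0.28).

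*GAA*, which degrades glycogen inside lysosomes, had 6.26, 6.04 and 6.25 in large pools and 6.48, 6.41 and 6.52 in small pools. All 6 values were below the expression floor, so the difference gives no size (log2 fold change -0.29, interval -0.54 to -0.03, adjusted p = 0.33 from limma). The glycoprotein-degrading mannosidases *MANBA* and *MAN2B1* had log2 fold changes of -0.21 and -0.07, and the fucosidase *FUCA1* had 0.03. For *GLA*, the alpha-galactosidase missing in Fabry disease, the log2 fold change was 0.20 with overlapping pools. *GLB1*, the beta-galactosidase of ganglioside GM1 and keratan sulfate, had -0.02.

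The sulfatases take sulfate groups off glycosaminoglycans and sulfatide, and all of them need *SUMF1*, an enzyme of the endoplasmic reticulum that makes the formylglycine of their active sites. Of these 6 genes 1 had a higher and 5 a lower mean in large cells (median log2 fold change -0.09, range -0.20 to 0.28). *IDS*, the iduronate 2-sulfatase, had 7.571, 7.737 and 7.323 in large pools and 7.279, 6.996 and 7.525 in small pools. The groups overlapped, and the log2 fold change was 0.28 (standard error 0.18, interval -0.15 to 0.71, adjusted p = 0.43 from limma). On its second probe set *IDS* had 6.99, 7.18 and 7.72 in large pools and 7.22, 7.25 and 6.96 in small pools, a log2 fold change of 0.15. The order of the large pools differed between these probe sets.
*ARSA*, which acts on sulfatide, had 6.48, 6.28 and 6.44 in large pools and 6.64, 6.56 and 6.57 in small pools, all below the floor, and the pools overlapped under each of the other 3 scalings. *SGSH* and *GALNS*, which act on heparan sulfate and on keratan sulfate, had log2 fold changes of -0.20 and -0.10. For *ARSB*, which acts on dermatan sulfate, both groups had a mean of 5.66. *SUMF1* itself had 6.925, 7.057 and 6.763 in large pools and 7.004, 7.236 and 6.778 in small pools. With a log2 fold change of -0.09 (interval -0.46 to 0.28) its groups did not differ beyond their spread.

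The member with the smallest p was *PPT1* in the lipid class. This gene encodes palmitoyl-protein thioesterase, which removes fatty acids from proteins and whose loss causes a neuronal storage disease. Its log2 expression was 9.53, 9.13 and 9.10 in large pools and 8.42, 8.77 and 8.70 in small pools. All large pools exceeded all small pools, and large pool 2 stood highest. Large cells had a mean of 9.25 ± 0.24 and small cells one of 8.63 ± 0.19 (SD, n = 3 pools each). The log2 fold change of 0.63, or 1.55-fold, had a standard error of 0.16 and an interval of 0.23 to 1.03 (adjusted p = 0.32 from limma). Leaving out any 1 pool gave 0.49 to 0.70.

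The other lipid enzymes and cofactors showed no separation of the pools (class of 7 genes, 3 with a higher and 4 with a lower mean in large cells, median log2 fold change -0.01). *ASAH1*, the acid ceramidase, had 11.47, 11.70 and 11.14 in large pools and 11.18, 11.09 and 11.32 in small pools. Large pool 4 fell among the small pools, and the log2 fold change was 0.24 (standard error 0.16, interval -0.16 to 0.64, adjusted p = 0.46 from limma). *SMPD1*, the acid sphingomyelinase, had a log2 fold change of -0.15, and the saposin precursor *PSAP*, whose products help lipid enzymes reach their substrates, had -0.01. *GM2A*, the activator that presents ganglioside GM2 to hexosaminidase, had 7.82, 7.62 and 7.86 in large pools and 8.33, 7.63 and 7.75 in small pools. It thus did not share the order of *HEXA*. *ACP2*, an acid phosphatase and the only member of its class, had 6.37, 6.75 and 6.81 in large pools and 6.82, 6.77 and 6.85 in small pools. Its log2 fold change was -0.17 (standard error 0.14, interval -0.51 to 0.17, adjusted p = 0.53 from limma), with large pool 2 standing lowest.

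**Figure D3:**
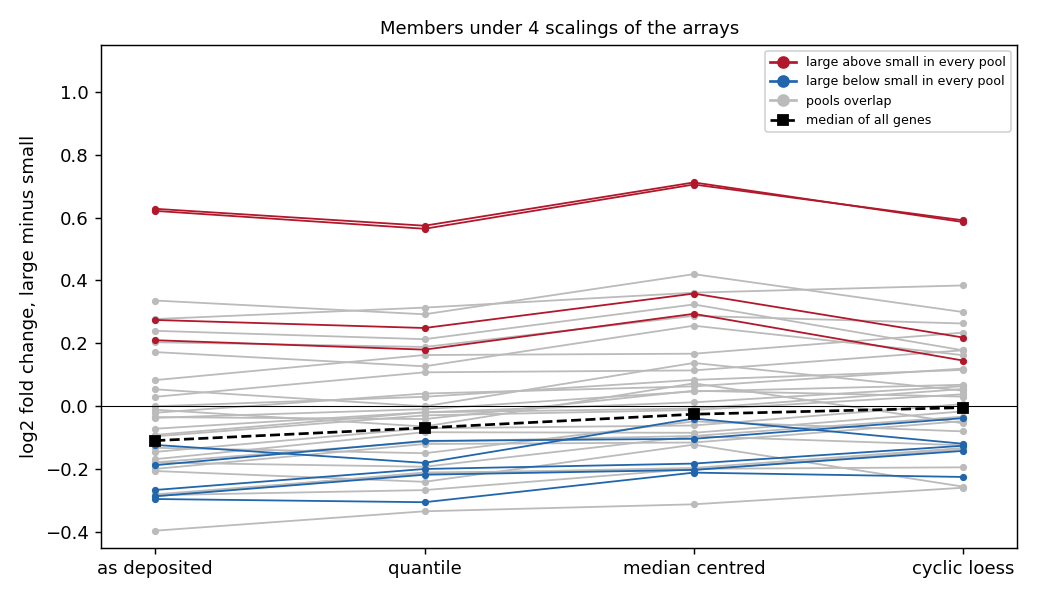
Log2 fold change of large minus small cells (vertical axis) of each of the 36 members as deposited and under 3 further scalings of the arrays (horizontal axis). Lines join the values of a gene, colours give the order of the pools as deposited and black squares are the median of all genes, which runs from -0.11 to near 0; *PPT1* and *HEXA* stay at the top under every scaling.

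Pools of 20 cells varied widely for several members. *NPC2*, which hands cholesterol to the lysosomal membrane, had 8.78, 9.35 and 8.83 in large pools and 8.66, 7.51 and 9.79 in small pools. Small pools were thus both the lowest and the highest of the 6, and the log2 fold change of 0.34 had an interval of -1.02 to 1.69. With 1 pool left out it ranged between -0.23 and 0.90, so its sign depended on single pools. For *LIPA*, the acid lipase of cholesteryl esters, the values were 6.16, 6.59 and 6.04 in large pools and 7.53, 5.83 and 5.96 in small pools. Only small pool 5 was above the floor. *MANBA* had 8.97, 9.05 and 9.14 in large pools and 9.89, 8.41 and 9.47 in small pools, so that the small pools enclosed the large ones.
For *GLB1* the large pools spread more, with 6.67, 7.64 and 6.83, against 6.98, 6.83 and 7.39 in small pools. Among the 28 members with a mean above the floor, 13 had a larger SD in small than in large pools (46.4%), against 51.1% of all genes above the floor. The median SD of these members was 0.21 in large and 0.18 in small pools, and that of all genes was 0.18 in both. Among the small pools, pool 6 was lowest in 12 of the 28 members (42.9%), against 34.7% of all genes, and pool 7 was highest in 12 (42.9%), against 28.5%. Among the large pools, pool 4 was lowest in 12 of the 28 (42.9%), against 31.7% of all genes. Of the 36 members 16 had a log2 fold change whose sign turned when some pool was left out. The 9 with separate pools could not be among them, because leaving out 1 pool cannot turn such a difference.

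**Figure D4:**
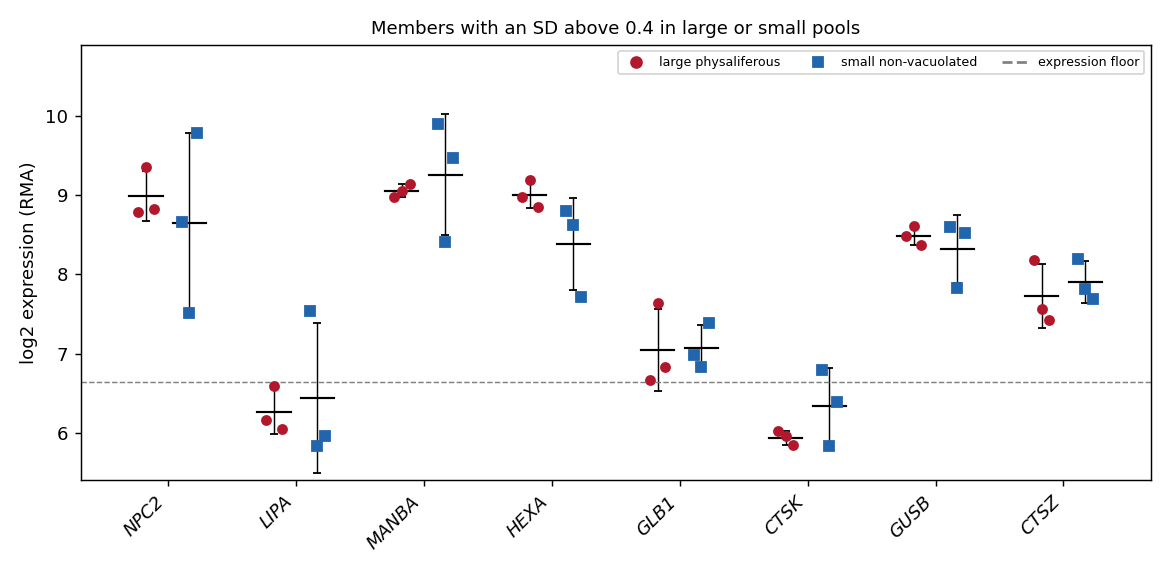
Log2 signal (vertical axis) of each pool for the 8 members with an SD above 0.4 in large or in small pools, ordered by that SD. Points are pools, horizontal lines are means, bars give the SD over 3 pools and a dashed line marks the floor; for *NPC2* and *MANBA* the small pools lie on both sides of the large pools.

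Genes that tag and carry the hydrolases held a larger difference than any member did. *GNPTAB* encodes the alpha and beta subunits of the phosphotransferase that starts the mannose 6-phosphate tag. Its values were 9.11, 7.96 and 8.85 in large pools and 7.35, 7.24 and 6.71 in small pools. All large pools were above all small pools, and the log2 fold change was 1.54, or 2.91-fold (standard error 0.33, interval 0.73 to 2.36, adjusted p = 0.32 from limma). The order held under all 3 further scalings, with log2 fold changes of 1.55 to 1.63.
*GNPTG*, which encodes the gamma subunit of the same enzyme, had 7.42, 7.26 and 7.48 in large pools and 7.67, 7.73 and 7.51 in small pools. Every large pool was here below every small pool (log2 fold change -0.25, adjusted p = 0.34 from limma), but the pools overlapped after centring and after cyclic loess normalization. *NAGPA*, which uncovers the tag in the next step, had all 6 values below the floor (log2 fold change -0.40, interval -0.70 to -0.11, adjusted p = 0.32 from limma), and its pools overlapped after cyclic loess normalization. For the receptors that carry tagged enzymes the log2 fold changes were 0.14 for *M6PR* and 0.10 for *IGF2R*, and for *SCARB2*, the receptor of glucocerebrosidase, 0.05. Of the 9 measured genes of this list 4 had a higher and 5 a lower mean in large cells (median log2 fold change -0.00). Limma called 0 of them, and at an unadjusted p under 0.05 *GNPTAB* was higher and *NAGPA* lower, where 4.33% of all genes were higher and 10.5% lower. After centring and after cyclic loess normalization 6 of the 9 genes had a higher mean in large cells. As deposited 1 gene was separated upward and 2 downward, against 5.48% and 21.6% of all genes. *GNPTG* and the receptors were named after their values were seen.

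**Figure D5:**
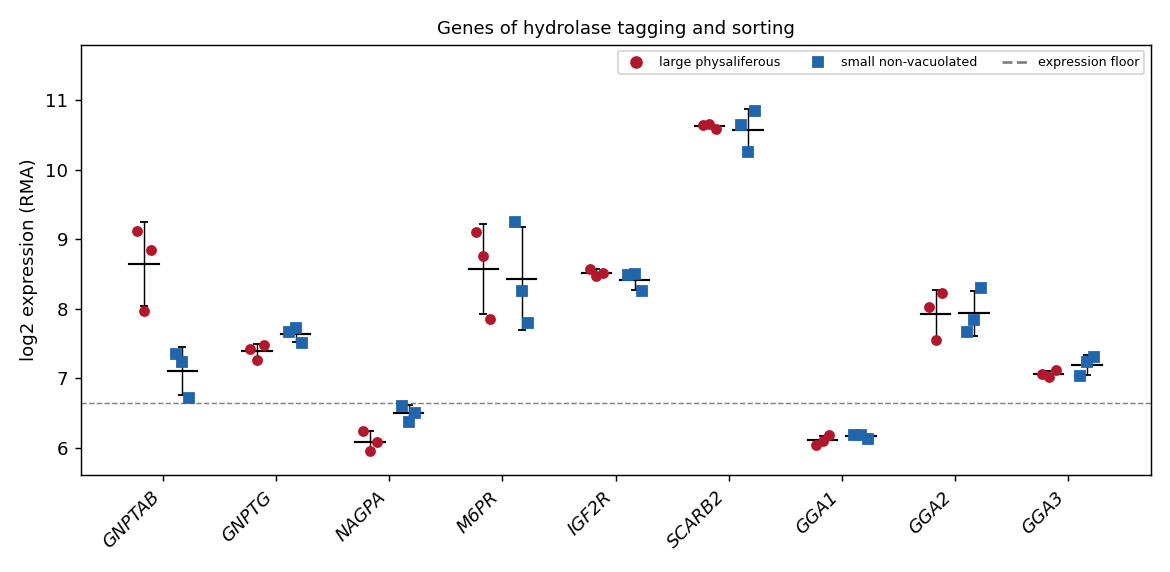
Log2 signal (vertical axis) of each pool for the 9 measured genes of hydrolase tagging and sorting. Points are pools, horizontal lines are means, bars give the SD over 3 pools and a dashed line marks the floor; *GNPTAB* has all large pools above all small pools, while *GNPTG* and *NAGPA* have them below.

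Further lysosomal hydrolases, outside the list of 37, held no gene that passed the test. Of 23 measured genes 7 had a higher and 16 a lower mean in large cells (median log2 fold change -0.16 as deposited), which is 30.4% and 69.6%, against 33.6% and 66.4% of all genes. This median moved to -0.08 with quantile normalization and after centring, and to -0.01 after cyclic loess normalization, where 10 genes were higher and 13 lower. As deposited 1 gene was separated upward and 4 downward (4.35% and 17.4%), against 5.48% and 21.6% of all genes. *CTSV*, a close relative of *CTSL*, had 5.76, 5.73 and 5.75 in large pools and 6.17, 6.56 and 6.02 in small pools, and *NAPSA*, an aspartic protease, had a log2 fold change of -0.27. *CTSV* was below the floor in all 6 pools and *NAPSA* in all but 1 small pool, and their adjusted p from limma was 0.32. *PRCP*, a carboxypeptidase that cuts next to proline and was named after its values were seen, was the gene separated upward. It had 8.17, 8.22 and 7.96 in large pools and 7.34, 6.74 and 7.89 in small pools, and the log2 fold change was 0.79 (interval 0.10 to 1.49, adjusted p = 0.33 from limma).
Cystatins, the inhibitors of cysteine cathepsins, had a lower mean in large cells in 8 of 9 genes (88.9%), against 66.4% of all genes. The count was the same under the 3 further scalings. There 62.3% (quantile normalization), 54.4% (centring) and 51% (cyclic loess) of all genes were lower. Their median log2 fold change was -0.20 as deposited and -0.09 after cyclic loess normalization, and it lay between -0.28 and -0.12 with 1 pool left out (-0.12 without large pool 3, -0.13 without small pool 5). Limma called 0, with 0 below 0.05 before adjustment. *CST1* and *CSTA*, both among the 8 with a lower mean, were below the floor in every pool. *CST6* was separated downward except after cyclic loess normalization (log2 fold change -0.35, or -0.18 without large pool 3, adjusted p = 0.35 from limma), and *CST2* had -0.22. *CSTB*, the abundant cytosolic inhibitor, was the exception with 11.66, 11.72 and 11.68 in large pools and 11.65, 11.51 and 11.61 in small pools. Its pools were separated upward by a small margin and overlapped with quantile and with cyclic loess normalization. *CSTB* was named after its values were seen.

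TFEB, TFE3 and MITF are transcription factors that switch on many lysosomal genes together through the E-box CACGTG, and mTORC1 at the lysosome keeps them out of the nucleus when nutrients are plentiful. Their RNA did not differ beyond the spread between pools. *TFEB* had 7.03, 6.66 and 6.97 in large pools and 6.90, 6.86 and 6.96 in small pools, a log2 fold change of -0.02 (interval -0.33 to 0.28). *TFE3* and *MITF* had -0.04 and -0.10. Of 17 measured genes of these factors and their control limma called 0, and 0 were below 0.05 before adjustment. As deposited 7 of the 17 had a higher mean in large cells (41.2%), against 33.6% of all genes. After centring 13 were higher (76.5%, against 45.6% of all genes), and after cyclic loess normalization 15 (88.2%, against 49%). Their median log2 fold change was -0.02 as deposited and 0.11 after cyclic loess normalization, and 0 genes were separated under either. The 2 of the 17 with the smallest p were the Ragulator subunits *LAMTOR3* and *LAMTOR5*, with log2 fold changes of 1.00 (interval -0.54 to 2.54) and 0.25. Without large pool 2 the value of *LAMTOR3* was 0.44, and without small pool 7 it was 1.54.

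Promoter sequences are shown because many lysosomal genes are known as targets of these factors. RefSeq promoters (GRCh38.p14, 250 bases before to 50 after a start) were found for 26 of 37 members. The E-box CACGTG, which reads the same on both strands, was present for 7 members (26.9%), against 8.77% of all genes with a promoter in the table and 7.26% of all 35116 promoters. These were *ARSB*, *CTSA*, *CTSD*, *CTSF*, *GAA*, *GALNS* and *SUMF1*. The CLEAR palindrome of 10 bases, which has this E-box at its centre, was present for *GAA* and *GALNS* (7.69%), against 0.421% of all genes with a promoter in the table and 0.353% of all promoters. All 7 members with CACGTG had a negative log2 fold change as deposited (median -0.10, range -0.29 to -0.00), as had 9 of 18 measured members whose windows lacked it and 66.4% of all genes. Of the 7, *ARSB*, *CTSF* and *GAA* were below the floor in every pool, and *ARSB*, *CTSD*, *GALNS* and *SUMF1* changed sign with the scaling. The 18 members without the box had a median of 0.00 (range -0.29 to 0.63). This is a description of letters in these windows and not of sites in use. Separated members without CACGTG lay on both sides, since *IDUA* was lower in large cells and *PPT1*, *CTSC* and *CTSL* were higher. For the separated members *HEXA*, *NAGLU* and *ARSA* no promoter was found, so whether they have the box was not assessed. The 120 bases before a start are given for *GAA* and *CTSA*, which have the box, for *IDUA* (the first of its 2 starts), *PPT1* and *CTSC*, which do not, and for *GNPTAB*. Capitals mark CACGTG.
GAA, chr17:80101461-80101580, plus strand: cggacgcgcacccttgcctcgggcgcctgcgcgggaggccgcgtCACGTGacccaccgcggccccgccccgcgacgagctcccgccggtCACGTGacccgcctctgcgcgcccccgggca
CTSA, chr20:45891215-45891334, plus strand: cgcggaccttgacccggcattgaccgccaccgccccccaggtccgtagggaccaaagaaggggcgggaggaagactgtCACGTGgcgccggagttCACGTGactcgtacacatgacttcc
IDUA, chr4:986924-987043, plus strand: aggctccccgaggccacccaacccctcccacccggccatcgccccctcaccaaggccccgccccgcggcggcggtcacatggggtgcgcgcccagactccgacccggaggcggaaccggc
PPT1, chr1:40097253-40097372, minus strand: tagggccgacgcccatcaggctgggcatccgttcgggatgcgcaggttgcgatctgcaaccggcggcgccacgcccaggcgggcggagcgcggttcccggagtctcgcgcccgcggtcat
CTSC, chr11:88337737-88337856, minus strand: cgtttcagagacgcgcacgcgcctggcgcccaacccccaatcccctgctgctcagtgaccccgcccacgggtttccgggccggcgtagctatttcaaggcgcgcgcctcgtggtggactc
GNPTAB, chr12:101830960-101831079, minus strand: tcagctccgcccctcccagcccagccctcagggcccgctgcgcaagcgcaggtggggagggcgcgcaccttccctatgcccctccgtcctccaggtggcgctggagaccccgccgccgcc
Counted with the start at 0, the 2 boxes of *GAA* begin at -76 and -31 and those of *CTSA* at -42 and -25. The windows of *IDUA*, *PPT1*, *CTSC* and *GNPTAB* hold no CACGTG.

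The arrays carried the markers of a chordoma line, while most markers of macrophages, which are rich in lysosomes, lay below the floor. All 9 chordoma markers, brachyury (*TBXT*) and the keratins *KRT8*, *KRT18* and *KRT19* among them, were above the floor in every pool, and their summed level was 13.74 to 13.81 in large pools and 13.70 to 13.78 in small pools (log2 of the linear sum). *COL2A1*, the collagen of cartilage and notochord, was lower in every large pool than in any small pool (log2 fold change -0.43, adjusted p = 0.32 from limma). *KRT8* had the other order (log2 fold change 0.19, adjusted p = 0.38 from limma), but its pools overlapped with quantile and with cyclic loess normalization. Of the 9 markers 4 had a higher and 5 a lower mean in large cells. As deposited 1 was separated upward and 1 downward (11.1% each), against 5.48% and 21.6% of all genes. Of 11 macrophage markers 7 were below the floor in every pool, among them *PTPRC*, *AIF1* and *CD163*. *CSF1R* was above it in 1 pool, *CD14* in 4 pools and *TYROBP* and *CD68* in all 6. The summed level was 10.02 to 10.15 in large pools and 9.93 to 10.20 in small pools. *AIF1* and *CSF1R* had log2 fold changes of -0.38 and -0.33, which give no size at levels below or near the floor. *TYROBP*, an adaptor of myeloid receptors, had 7.52, 7.43 and 7.19 in large pools and 7.66, 7.56 and 7.79 in small pools, separate as deposited but overlapping after centring and after cyclic loess normalization. *CD68*, a glycoprotein of the lysosomal membrane that many cell types express, had 8.966, 8.668 and 9.003 in large pools and 8.713, 8.159 and 7.968 in small pools. Its log2 fold change was 0.60 (interval 0.07 to 1.12, adjusted p = 0.33 from limma), with overlapping pools as deposited. Of the 11 macrophage markers 2 had a higher and 9 a lower mean in large cells (18.2% and 81.8%), against 33.6% and 66.4% of all genes. *CD14*, *TYROBP* and *CD68* were named after their values were seen. Fibroblast markers had a summed level of 10.57 to 10.92 in large pools and 11.09 to 11.37 in small pools, without overlap as deposited. *THY1*, the brightest of them, weighs most in this linear sum (9.27 to 10.08 in large pools, 10.07 to 10.21 in small pools). The log2 fold changes were -0.47 for *THY1* and -0.77 for *S100A4*, with overlapping pools for both as deposited. All 10 markers had a lower mean in large cells as deposited, as had 66.4% of all genes. After centring 7 were lower and after cyclic loess normalization 5, against 54.4% and 51% of all genes. Of these 10 markers *PDGFRA*, *FAP* and *DCN* were below the floor in every pool. Their part in the differences of the lysosomal genes was not tested.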

How the data were processed

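The deposited values are log2 signals, with 1 column for each Affymetrix Human Gene 1.0 ST array, which the authors made by robust multi-array averaging (background correction, quantile normalization, median polish); replicates were not pooled. The methods name the affy package and the submitters' processing notes Affymetrix Expression Console; neither names the chip definition. The number of pools limits the precision. In R 4.3.3, limma 3.58.1 (lmFit, eBayes, no covariate) tested large minus small on the brightest probe set of each gene with 1 symbol, without a floor so that every member was tested, with Benjamini-Hochberg adjustment over 18404 genes. The methods removed genes without expression or change, with no limits stated. That filter was tried as an alternative at a signal of 100 in at least 25% of arrays and an interquartile range above 0.5. With it limma called 0 of 4675 probe sets, the smallest adjusted p being 0.08. The methods state that pools were picked in quadruplicate, while the series holds 3 pools of each group. Symbols came from GEO's platform annotation, in which 19158 of 32321 probe sets had 1 symbol, 1388 several and 11775 none; those outside the list were updated through GRCh38.p14 RefSeq, where 30 had no match. Values per pool are given for members with separate pools and for the 2 smallest p of each class, and other members given per pool were chosen after their values were seen. The members and lists were chosen with earlier results of these data known. On simulated arrays of 18404 genes with the spread of these pools, limma called 70 of 100 genes shifted by 1.5 log2 units, 87 of 100 shifted by 2.5, and 10 unshifted genes. The simulated noise was normal and independent between genes, so these shares do not give the power on the real arrays. There limma called 0 of 18404 genes, with log2 fold changes of up to 4.21. A planned search of protein sequences was not run. AGA and several genes of the other lists were not analysed here.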

Additional observations from a re-analysis of the deposited data

How the results depend on the processing

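Under all 17 alternatives limma called 0 members after adjustment, the smallest adjusted p of a member lying between 0.31 and 0.925. Members below 0.05 before adjustment were 1 higher and 2 lower as reported. The log2 fold changes of the members given per pool by rule kept their sign under every alternative that tested them. Many alternatives could not turn it. Filters and variance settings leave a log2 fold change as it is, and leaving out 1 pool cannot turn the sign where pools are separate. With the filter on floor and variation only *NPC2* was tested (median log2 fold change 0.34), so that 0 members were separate and 0 were below 0.05 before adjustment in either direction. A floor on the mean or in 25% of arrays left 28 members, of which 3 were separated downward and 1 lower member was below 0.05 before adjustment. Centring gave 3 higher and 0 lower members below 0.05 before adjustment, and 3 separated downward. Cyclic loess gave 0 lower members below 0.05 before adjustment and 3 separated downward, with medians of 0.0916 for glycosidases and 0.0462 for sulfatases. Quantile normalization gave 1 lower member below 0.05 before adjustment, and a variance trend gave 2 higher and 1 lower. For the trend the share of all genes is not given here. With 1 pool left out, 1 to 2 higher and 0 to 4 lower members were below 0.05 before adjustment (2 higher without large pool 2, large pool 4 or small pool 5; 4 lower without large pool 2, 0 without large pool 3 or small pool 5, 1 without small pool 7), while 4 to 6 were separated upward and 6 to 10 downward (10 without large pool 2, 9 without large pool 4, 8 without small pool 6). Fewer pools make a separation easier, and without these 3 pools in turn 27.8%, 25% and 22.2% of the members were separated downward, against 30.5%, 29.1% and 28% of all genes. Upward, 11.1% to 16.7% of the members and 8.06% to 9.71% of all genes were separated with 1 pool left out. Of all genes 3.72% to 4.69% were higher and 5.55% to 8.64% lower at 0.05 before adjustment in these fits. Without large pool 2 these shares were 3.72% and 8.64%. Single pools also moved log2 fold changes that did not pass the test, to 0.14 for *IDS* without small pool 6 and 0.18 without large pool 3, to 0.11 for *ASAH1* without large pool 3 and 0.39 without large pool 4, and to -0.03 for *ACP2* without large pool 2. No paired analysis was possible because the large and small pools share no replicate numbers. The bounds of the members' 95% intervals reached -1.32 for *LIPA* and 1.69 for *NPC2*, which limits what 3 pools against 3 can show.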
